A study of Chlorocebus aethiops with 12 samples.

Results

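Heat shock chaperones and the co-chaperones of steroid receptors were followed in COS-1 cells, a fibroblast-like line from African green monkey kidney, after a short glucocorticoid exposure. The set was defined by 38 RefSeq transcript records of the HSP90, HSP70, HSP40, HSP60, small heat shock, BAG, p23, HOP, CDC37, AHA1, CHIP, HIP, cyclophilin 40 and HSF1 genes, and all array probes carrying such a record were taken. Of these records, 37 had a probe, among 32379 distinct records or unassigned probes on the array. The 37 carried 68 probes. The remaining record, NM_005346, an inducible HSP70, had none. The files give records without gene names, so the family and role of a record are stated here as background knowledge that was not checked against a name table.

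All cells were transiently transfected with mouse CCRP carrying a V5 tag (mCCRP-V5), itself a co-chaperone of nuclear receptors, and with FLAG-tagged human glucocorticoid receptor (FLAG-hGR). A tyrosine near the receptor's N terminus was replaced by phenylalanine, which cannot be phosphorylated (Y30F), or by glutamate, which carries a negative charge (Y30E). Treatment began 40 h after transfection and lasted 6 h, with the synthetic glucocorticoid dexamethasone at 100 nM or with 0.1% DMSO as vehicle. This gave the groups Y30F-DMSO, Y30F-DEX, Y30E-DMSO and Y30E-DEX, with 3 arrays each. No group lacked the transfected co-chaperone or the receptor. The transfection was transient, so each RNA may come from transfected and untransfected cells together, and the levels of the transfected genes were not analysed here.

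In unstimulated cells the glucocorticoid receptor is kept ready to bind hormone by a chaperone cycle. HSP70, helped by J-domain proteins of the HSP40 family, delivers the receptor through the adaptor HOP to HSP90, and p23 and large immunophilins complete the mature complex. The same machinery is the classical output of the heat shock response, in which the factor HSF1 drives transcription of inducible HSP70, HSP40 and HSP90 genes. The question taken here was whether transcripts of this machinery moved with dexamethasone, and whether that depended on the receptor mutant.

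Levels were read from a 1-colour human whole-genome array, as log2 of the processed signal minus the log2 of that array's 75th percentile, so 0 is the signal of the 75th percentile spot. Human probes were read here with monkey RNA. Levels of different probes were set against each other only to choose the brightest probe of a record and to describe a dim HIP probe. On the arrays, 60.5% to 67.0% of spots exceeded background clearly. All 37 records passed the filter on dim probes, each with its probe well above background on all 12 arrays. The 12 arrays lay on 3 slides. Y30F-DMSO was wholly on slide 1 and Y30E-DEX wholly on slide 3. Y30F-DEX had 1 array on slide 1 and 2 on slide 2, and Y30E-DMSO had 2 on slide 2 and 1 on slide 3. Whether replicates came from separate cultures is not stated in the labels, and the p-values then reflect array-to-array spread that may be technical. Tests are limma fits over all 20037 features with Benjamini-Hochberg adjustment, and a record is called changed at an adjusted p of at most 0.05.

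Dexamethasone lowered 2 of the 37 chaperone records and raised none, and these were the same records with both receptors. One was NM_005345, a stress-inducible cytosolic HSP70, and the other was NM_006145, a cytosolic J-domain protein of the HSP40 family that works as a partner of HSP70. With Y30F, 1.82% of all features had changed (0.389% lower, 1.43% higher). With Y30E, 2.11% had changed (0.619% lower, 1.49% higher). For the mean of both effects, 3.77% had changed (1.06% lower, 2.7% higher). Over the whole array, 51 features (0.255%) were lower with both receptors, and 2 of them were these records. In total RNA from a whole culture, fewer cells that express a gene and less of its RNA per cell cannot be told apart.

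**Figure D1:**
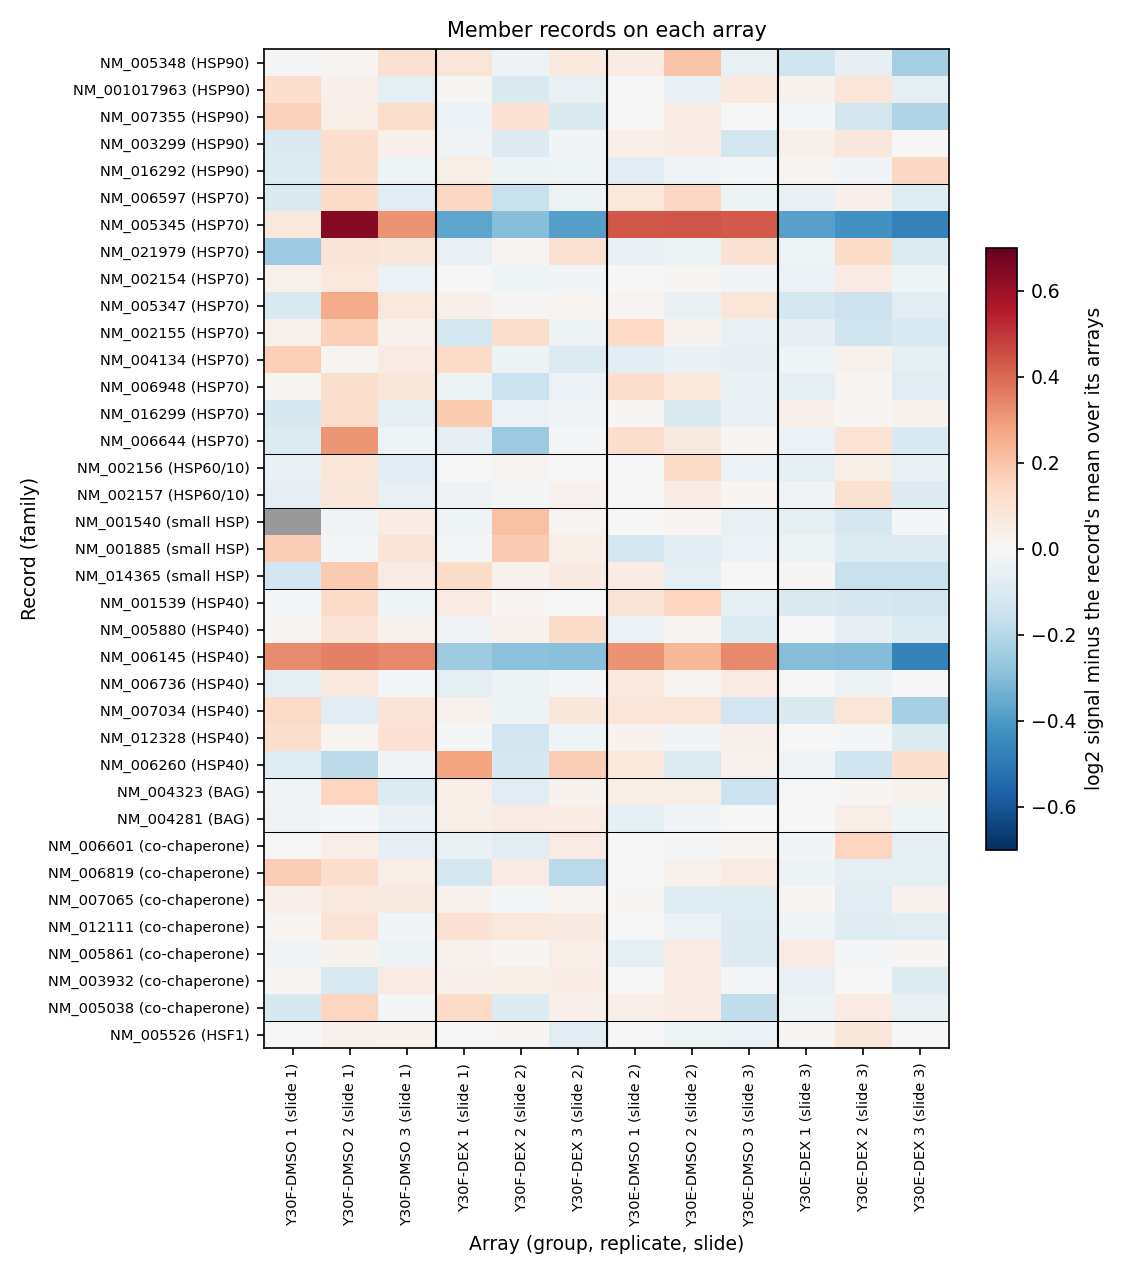
Each row is 1 of the 37 records, grouped by family, each column is 1 array (group, replicate and slide), and colour gives the log2 signal minus that record's mean over its arrays, from -0.7 to 0.7, with grey for the NM_001540 spot left out as an outlier. NM_005345 and NM_006145 are red in the 6 DMSO columns and blue in the 6 DEX columns, while the other rows show no such division by treatment.

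The inducible HSP70 record NM_005345 had log2 signals of 4.48, 5.04 and 4.72 in Y30F-DMSO and of 4.03, 4.10 and 4.02 in Y30F-DEX. In Y30E-DMSO it had 4.84, 4.84 and 4.83, and in Y30E-DEX 4.02, 3.98 and 3.93. All 6 dexamethasone arrays lay below all 6 vehicle arrays, and the widest spread was among the Y30F-DMSO arrays (SD 0.28, n = 3). With Y30F it fell by 0.69 ± 0.11 on the log2 scale (SE, n = 3 against 3, limma adjusted p = 0.00959), to 0.618 of the vehicle level. With Y30E it fell by 0.86 ± 0.11 (limma adjusted p = 0.00259), to 0.550 of the vehicle level. Averaged over both receptors the change was -0.78 ± 0.08, with a 95% interval from -0.95 to -0.60 (limma adjusted p = 0.000241).

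This HSP70 record was read by 3 probes, which allows a check within the gene. The probe used above was the brightest, A_24_P123616. For A_24_P682285 the average change was -0.80 (limma over all probes, adjusted p = 0.000888) and for A_23_P111132 it was -0.79 (adjusted p = 3.4e-05). Each of the 3 probes had also fallen with Y30F alone and with Y30E alone in that fit. The inducible HSP70 genes are near-identical copies, and NM_005346 had no probe of its own, so the signal cannot be assigned to 1 copy. Another inducible cytosolic HSP70, NM_002155, did not pass the test, with an average change of -0.12 (95% interval -0.23 to 0.00, limma adjusted p = 0.363).

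The HSP40 record NM_006145 had log2 signals of 3.06, 3.08 and 3.07 in Y30F-DMSO, 2.48, 2.44 and 2.44 in Y30F-DEX, 3.05, 2.96 and 3.07 in Y30E-DMSO, and 2.43, 2.43 and 2.26 in Y30E-DEX. Vehicle and dexamethasone arrays were again fully apart, with Y30E-DEX replicate 3 the lowest. The fall was 0.62 ± 0.05 with Y30F (log2, SE, n = 3 against 3, limma adjusted p = 0.000269), to 0.652 of the vehicle level. With Y30E the record fell by 0.65 ± 0.05 (adjusted p = 0.000218), to 0.636 of the vehicle level. The average change of -0.64 ± 0.04 (adjusted p = 9.08e-06) was at rank 5 by p-value among the 213 features that were lower over both receptors, and that of NM_005345 at rank 23. By size of the fall the order was reversed, with NM_005345 at rank 10 and NM_006145 at rank 15 of the 213.

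**Figure D2:**
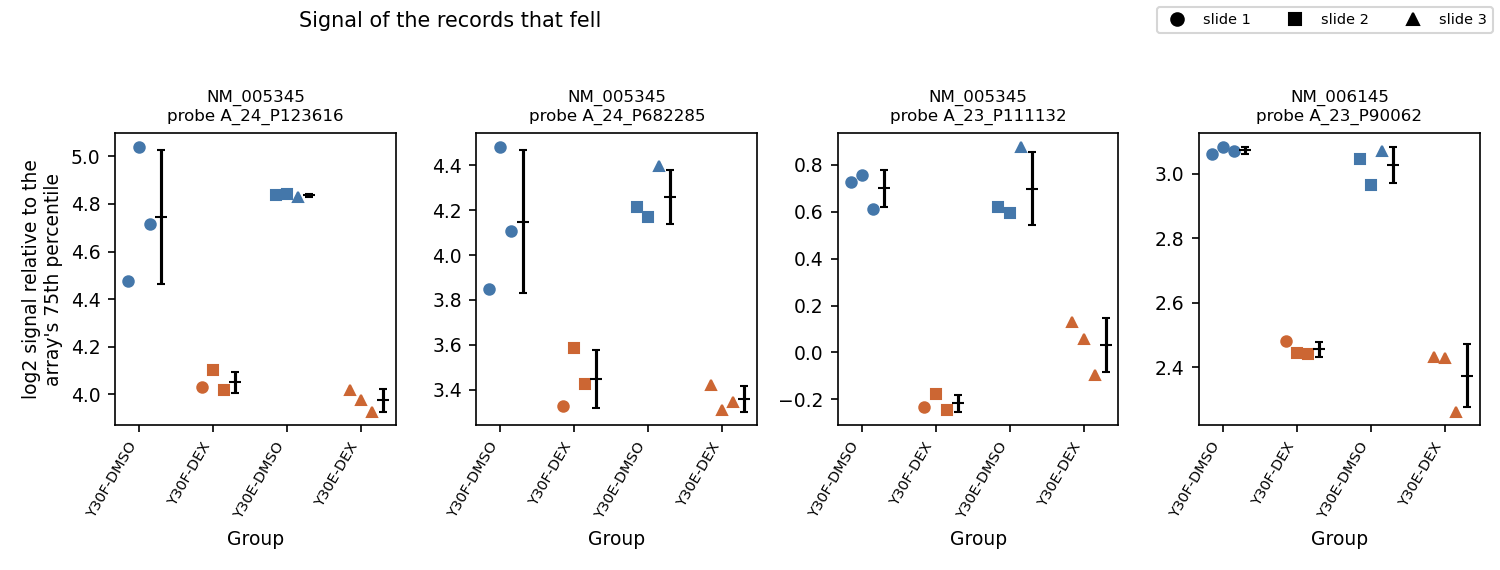
Log2 signal relative to the array's 75th percentile for the 3 probes of NM_005345 and the probe of NM_006145, by group, where points are arrays (blue for DMSO, orange for DEX, the shape giving the slide), and black bars show the mean and SD of 3 arrays. In each panel every DEX point lies below every DMSO point, and the vertical axes differ between panels and do not start at 0.

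Slides divide the groups unevenly, so both records were also read within slides. On slide 1, the Y30F-DEX array lay below the mean of the 3 Y30F-DMSO arrays by 0.71 for NM_005345 and 0.59 for NM_006145 (differences of -0.71 and -0.59, log2). On slide 3, the mean of the 3 Y30E-DEX arrays differed from the single Y30E-DMSO array by -0.86 and -0.70. With slide as a fixed block the estimates are these same within-slide differences. Called features there were 0.599% with Y30F, 0.908% with Y30E and 1.8% for the average. NM_006145 kept its call with both receptors (limma adjusted p = 0.0205 with Y30F and 0.00756 with Y30E). By its used probe, NM_005345 lost it with each receptor taken alone (adjusted p = 0.148 and 0.0709). That probe kept it for the average (-0.78 ± 0.12, adjusted p = 0.0142). The other 2 probes of NM_005345 were divided in the block fit over all probes. A_23_P111132 kept its call with Y30F (-0.93, limma adjusted p = 0.00732) and with Y30E (-0.85, 0.00662). A_24_P682285 did not (-0.82 and -1.04, adjusted p = 0.142 and 0.0533). Without Y30F-DEX replicate 3 the Y30F change of NM_005345 was -0.68 (adjusted p = 0.0503). In the average effect, slide 2 enters the groups Y30F-DEX and Y30E-DMSO alike, 2 arrays each with opposite sign, so an offset of slide 2 cancels there. An offset between slides 1 and 3 does not cancel in it, and is removed by the block.

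None of the other 35 records passed the test for the average effect (limma, smallest adjusted p = 0.148). By the used probes, their changes lay between -0.14 and 0.09 on the log2 scale. For all 35, the 95% interval lay within 1.3-fold in either direction, with the outermost bounds at -0.29 and 0.26. With slide as a fixed block this held for 34 of the 35, with the outermost bounds at -0.33 and 0.39. Of the 37 records, 6 had an unadjusted p under 0.05, the 2 fallen ones among them, against 14.1% of all features. The median average change over the 37 was -0.02, and over all features it was 0.01. Arrays did not overlap between treatments, in the lower direction, for 5 of the 37 records with Y30F (5.59% of all features), for 9 with Y30E (11.3%) and for 2 with both (1.58%), again NM_005345 and NM_006145.

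**Figure D3:**
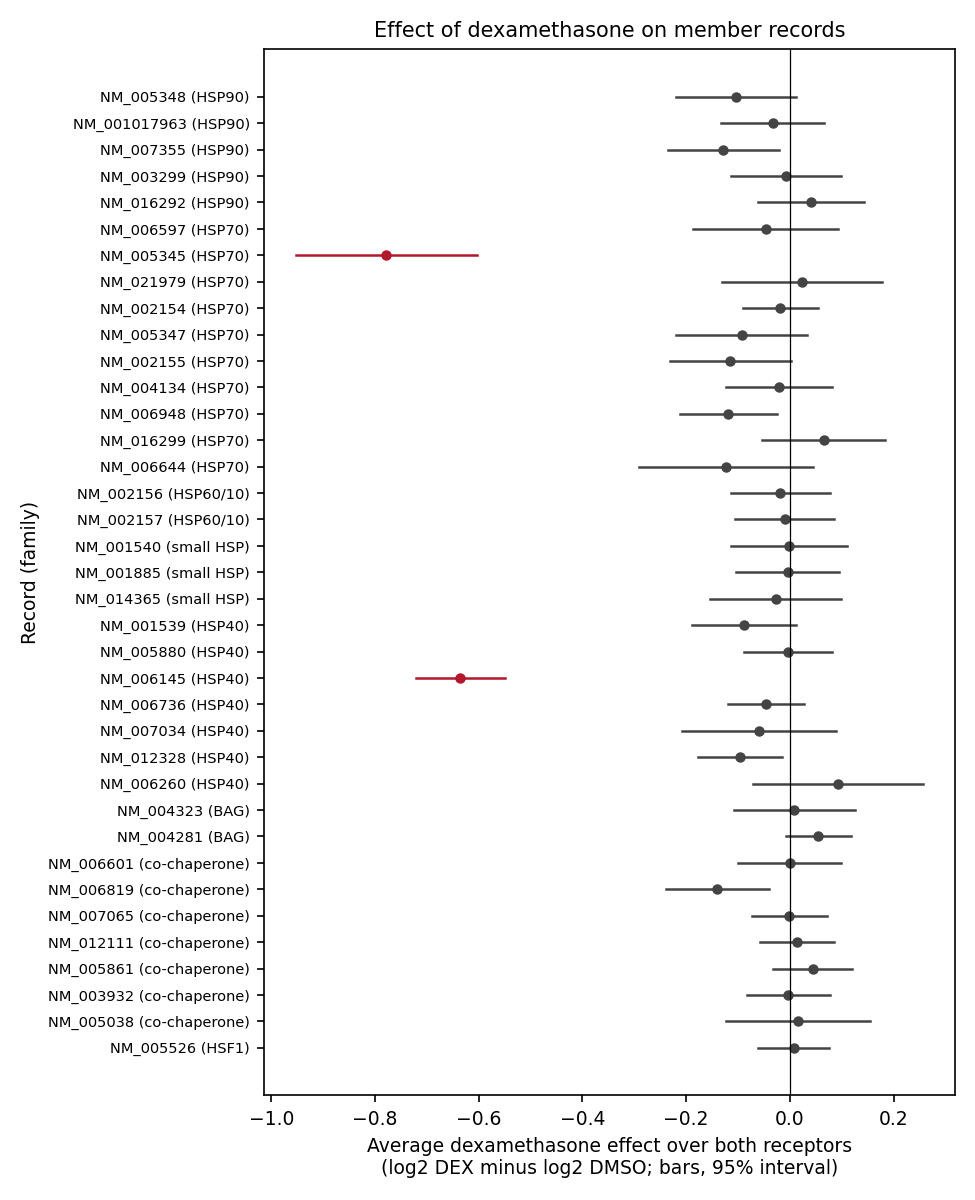
Points give the average dexamethasone effect over both receptors (log2 DEX minus log2 DMSO) for the 37 records, with limma's 95% interval, grouped by family, with the records past the threshold in red. NM_005345 at -0.78 and NM_006145 at -0.64 stand apart from the other 35, which lie between -0.14 and 0.09.

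Among the other HSP70-type records, 9 were measured besides NM_005345 and none had changed. The constitutive cytosolic HSP70, NM_006597, which carries most routine folding, had an average change of -0.05 (95% interval -0.19 to 0.09). The endoplasmic reticulum form NM_005347, a marker of the unfolded protein response, was at -0.09 (-0.22 to 0.03). The mitochondrial form NM_004134 was at -0.02 (-0.12 to 0.08). The HSP110-type exchange factors, which recharge HSP70, were at -0.12 for NM_006644 (-0.29 to 0.04) and -0.02 for NM_002154 (-0.09 to 0.05). The record with the second-lowest p in this family was NM_006948, a microsomal HSP70-like protein, at -0.12 (-0.21 to -0.03, adjusted p = 0.206).

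Besides NM_006145, 6 J-domain records were measured, and none had changed. These included NM_001539 and NM_005880, cytosolic partners of HSP70, with average changes of -0.09 (95% interval -0.19 to 0.01) and -0.00 (-0.09 to 0.08). NM_012328, a J-domain protein of the endoplasmic reticulum, was at -0.10 (-0.18 to -0.01, adjusted p = 0.245). NM_006260, also of the endoplasmic reticulum, had the highest estimate of the 37 records with Y30F, 0.21 (-0.03 to 0.44, adjusted p = 0.433), and with Y30E it was at -0.02. Its Y30F-DEX arrays read 0.20, -0.20 and 0.10, and its Y30F-DMSO arrays -0.16, -0.26 and -0.10, so the groups overlapped. With slide as a fixed block the Y30F estimate of NM_006260 was larger, 0.37, and rested on the single Y30F-DEX array of slide 1.

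HSP90 holds the receptor in its hormone-binding form. Its 5 records included NM_005348 and NM_001017963, both of the same inducible cytosolic HSP90 gene, and NM_007355, the constitutive cytosolic one. NM_007355 had the lowest p of the family. Its signals were 5.75, 5.63 and 5.71 in Y30F-DMSO, 5.55, 5.69 and 5.49 in Y30F-DEX, 5.59, 5.65 and 5.59 in Y30E-DMSO, and 5.58, 5.46 and 5.37 in Y30E-DEX. Groups overlapped with Y30F and were narrowly apart with Y30E, and the average change of -0.13 ± 0.05 did not pass (adjusted p = 0.235). NM_005348 was at -0.10 and NM_001017963 at -0.03, and the endoplasmic reticulum and mitochondrial forms, NM_003299 and NM_016292, were at -0.01 and 0.04. For the average effect, no HSP90 interval of the used probes reached below -0.24 or above 0.14. With slide as a fixed block the outermost bounds were -0.30 and 0.21. The second probes of NM_005348 and NM_001017963 had average changes of 0.01 and -0.01. With Y30F they were at 0.18 and 0.25 (0.46 and 0.65 with the block), and with Y30E at -0.15 and -0.27. None of these passed (limma over all probes). Taken by receptor, NM_005348 by its used probe was at -0.21 with Y30E (95% interval -0.37 to -0.04, limma adjusted p = 0.238) and at -0.00 with Y30F (-0.16 to 0.16). With array weights its Y30E value passed (adjusted p = 0.0426). That setting called 1937 features over the whole array with Y30E, against 423 without weights.

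The receptor co-chaperones were 7 records, and none had changed. HOP, the adaptor that passes receptor from HSP70 to HSP90 (NM_006819), came closest. Its signals were 2.97, 2.92 and 2.85 in Y30F-DMSO and 2.68, 2.86 and 2.62 in Y30F-DEX, and 2.80, 2.83 and 2.86 in Y30E-DMSO against 2.76, 2.74 and 2.74 in Y30E-DEX. The groups overlapped slightly with Y30F (2.86 against 2.85) and did not with Y30E. The average change was -0.14 ± 0.04 (adjusted p = 0.148), and its second probe was at -0.07. Without Y30F-DEX replicate 2 the average HOP change was -0.17 and passed (limma adjusted p = 0.0272). With array weights HOP also passed, at -0.15 for the average (adjusted p = 0.0450) and -0.23 with Y30F (adjusted p = 0.0428). Array weights called more features over the whole array as well, 1451 for the average against 755 without weights.

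The other 6 co-chaperones lay close to 0. The HSP90-binding protein p23 (NM_006601), which stabilises the mature receptor complex, was at -0.00 (95% interval -0.10 to 0.10). CDC37 (NM_007065), which brings kinases to HSP90, was at -0.00 and AHA1 (NM_012111), which speeds HSP90's ATPase, at 0.01. CHIP (NM_005861), a ubiquitin ligase that marks chaperone clients for degradation, was at 0.04 (-0.03 to 0.12). HIP (NM_003932), which steadies HSP70 on its client, was at -0.00 and cyclophilin 40 (NM_005038), an immunophilin of HSP90 complexes, at 0.02. The transcript of HSF1 itself (NM_005526) read 4.27, 4.30 and 4.29 in Y30F-DMSO, 4.27, 4.28 and 4.19 in Y30F-DEX, 4.27, 4.24 and 4.23 in Y30E-DMSO, and 4.28, 4.35 and 4.26 in Y30E-DEX. It had an average change of 0.01 ± 0.03 (-0.06 to 0.08, adjusted p = 0.956). Transcript level says nothing of HSF1 activity, which is set mainly at the protein.

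BAG proteins release HSP70 from its client, and both their records had estimates above 0 without passing. NM_004281, a stress-induced member, read 2.26, 2.27 and 2.24 in Y30F-DMSO and 2.33, 2.34 and 2.33 in Y30F-DEX, which do not overlap. With Y30E the arrays overlapped (2.22, 2.26 and 2.28 against 2.28, 2.33 and 2.25), and the average was 0.06 ± 0.03 (adjusted p = 0.447). By the used probes, the mitochondrial chaperonin NM_002156 and its co-chaperonin NM_002157 were at -0.02 and -0.01. Chaperonin signals by the used probe ran from 8.06 to 8.22 in Y30F-DMSO and from 8.13 to 8.15 in Y30F-DEX. With Y30E they ran from 8.09 to 8.26 and from 8.07 to 8.17. A second probe of NM_002156, A_32_P76091, had an average change of 0.00. It was at 0.21 with Y30F (0.38 with slide as a fixed block) and at -0.21 with Y30E (-0.15 with the block). None of these passed (limma over all probes). The 3 small heat shock records, holdases that keep unfolded proteins soluble, were at -0.00 for NM_001540, -0.00 for NM_001885 and -0.03 for NM_014365. For NM_014365, the one with the lowest p, vehicle arrays read 0.12, 0.43 and 0.31 with Y30F against 0.38, 0.28 and 0.32. With Y30E it read 0.30, 0.18 and 0.25 against 0.26, 0.10 and 0.10. For NM_001540 the fit left out Y30F-DMSO replicate 1, whose spot was an outlier.

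Whether the receptor mutants differed in these responses was tested as the dexamethasone effect with Y30E minus that with Y30F. No chaperone record passed (limma, 0 of 37, and 0 of 20037 features, 0%). By the 1 probe used for each record, none of the 37 had an unadjusted p under 0.05, against 11.3% of all features. For NM_006145 the difference was -0.04, with a 95% interval from -0.21 to 0.14. For NM_005345 it was -0.17, from -0.52 to 0.18. The other 2 probes of NM_005345 were at -0.20 (A_24_P682285) and 0.25 (A_23_P111132), without passing (limma over all probes, adjusted p = 0.790 and 0.496). The direction of the difference thus depended on the probe. By the used probes, the difference over the 37 records lay between -0.22 and 0.12. Its interval lay within 1.3-fold for 32 and within 1.5-fold for all 37. Other probes lay further out, such as A_32_P199252 of NM_001017963 at -0.53 and A_32_P76091 of NM_002156 at -0.41. Of the 65 kept probes, 22 lay above 0 and 43 below, and none passed (limma over all probes). With slide as a block 0 of 37 passed as well, and 18 features (0.0898%) did over the array. With the block A_32_P199252 and A_32_P76091 were at -0.85 and -0.53, without passing (limma over all probes). By the used probes, the bounds were wider there, and the difference lay between -0.42 and 0.21. Its interval lay within 1.3-fold for 22 records and within 1.5-fold for 34, with the outermost bounds at -0.87 and 0.60.

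**Figure D4:**
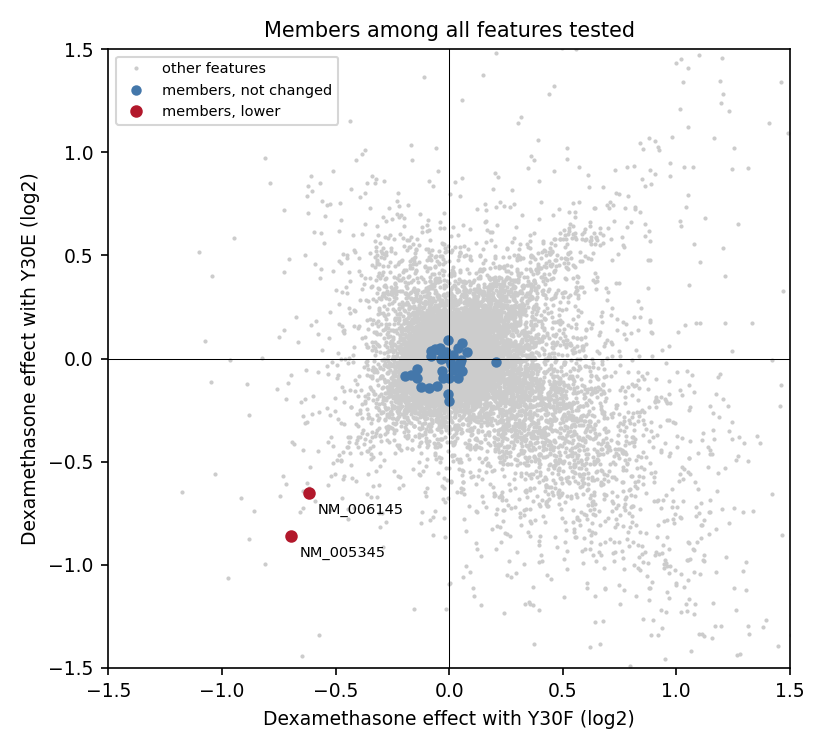
Each point is 1 of 20037 features, with the dexamethasone effect for Y30F on the horizontal and for Y30E on the vertical axis (both log2); grey points are other features, blue points are the 35 member records not changed and red points are NM_005345 and NM_006145, and 79 features lie outside the axes, which end at 1.5. The red points sit in the lower left quadrant at -0.69 and -0.86, and at -0.62 and -0.65, away from the blue ones.

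Set against each other under the same treatment, the mutants showed no changed chaperone record. Under DMSO 0 of 37 passed (limma, 2 with an unadjusted p under 0.05, against 13.9% of all features), where 0.00998% of features were called. By the used probes, Y30E minus Y30F lay between -0.16 and 0.10. With slide as a fixed block it lay between -0.30 and 0.37, and 0 of 37 passed. The interval there lay within 1.3-fold for 19 records, with the outermost bounds at -0.57 and 0.76. Without the block the lowest used probe was that of NM_001885, a small heat shock protein, with an adjusted p of 0.305 (limma). Its lowest Y30F-DMSO array (2.82) lay above its highest Y30E-DMSO array (2.79). Other probes lay further out, with NM_001540 at -0.17 (A_23_P257704), NM_006948 at -0.18 (A_23_P17606) and NM_001017963 at 0.22 (A_32_P199252). Of the 65 kept probes, 26 lay above 0 and 39 below, and none passed (limma over all probes). Under dexamethasone 0 of 37 passed (3 with an unadjusted p under 0.05, against 13.6%), where 0.015% of features were called. By the used probes, the values there lay between -0.18, for the HSP90 record NM_005348, and 0.09. With slide as a fixed block they lay between -0.24 and 0.27, with the outermost bounds at -0.63 and 0.67. Without the block other probes lay further out, with NM_006948 at -0.35 (A_23_P17606), NM_002156 at -0.33 (A_32_P76091) and NM_005345 at 0.25 (A_23_P111132). Of the 65 kept probes, 15 lay above 0 and 50 below, and none passed (limma over all probes). For the fallen records the vehicle levels did not differ past the threshold, with Y30E minus Y30F at 0.09 (95% interval -0.15 to 0.34) for NM_005345 and -0.05 (-0.17 to 0.08) for NM_006145. No slide held both mutants under the same treatment.

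Seen probe by probe, 65 of the 68 probes passed the filter and 17 records had more than 1 of them. With all probes as features, 4 of the 65 were lower for the average effect, the 3 of NM_005345 and that of NM_006145, and none was higher (3.57% of all probes had changed). For Y30F alone, where 1.65% of probes had changed, 1 more probe was lower, A_32_P50431, 1 of 8 for HIP (NM_003932). It is far dimmer than the others, with log2 signals of -4.06, -4.03 and -4.25 in Y30F-DMSO and -4.81, -4.48 and -4.60 in Y30F-DEX. It fell by 0.51 (limma over all probes, adjusted p = 0.0229), while the brightest HIP probe, the one used above, was at 0.06. With Y30E the dim probe was at 0.13. The HIP probes therefore disagreed, and the dim one was not counted as a change of the gene.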

How the data were processed

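RNA from 12 COS-1 cultures or aliquots, as Cy3-labelled cRNA, was read on 12 human arrays in 1 colour, per the labels' protocols. The deposited intensity used was the scanner software's processed signal (Agilent Feature Extraction, version 12 per the submitters' processing notes), for which background had been subtracted and spatial trends removed but arrays had not been scaled to each other, per the file headers. The median spot and background intensity and the spot flags were other deposited columns used. The deposited series table was identical to the scanner files (0 values differed). Groups came from titles. The labels' construct field names only 1 construct per sample, while descriptions name both, and the descriptions were followed.

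Scaling subtracted the log2 of an array's 75th percentile, taken across its 43376 spots that are not controls (signals of 706 to 876). Outlier spots were left out (89 to 154 per array), and spots of a probe averaged. A probe stayed in if, in at least 1 group, every array had 0.5 or more of its spots well above background (25570 probes). For each record the brightest kept probe was used (20037 features). The fit was limma 3.58.1 in R 4.3.3 (lmFit, eBayes) on 4 group means over all 12 arrays, with 8 residual degrees of freedom and 6 comparisons. SEs are limma's, SDs are over the arrays of a group, and the number of arrays limits the precision. The code was tested on simulated data.

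Members and lists were chosen with earlier results of these data known. Array values were given for records past the threshold with or without a slide block, and for the record with the lowest p for the average effect in each family. Other records and probes were chosen after their values were seen. Gene lists fixed by symbol (hormone targets, further chaperones, unfolded protein response, cell type markers, the transfected genes) were not analysed here, since no table of names was used.

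Alternatives were quantile normalization, median centring, normexp correction (offset 50), the series table, no filter, a filter requiring every array, each probe as a feature, fixed or random slide blocks (statmod 1.5.0), slide 1 or 3 alone, slide 2 left out, a block for replicate number, a fit on only the groups compared, a trend and robust prior, array weights, and leaving out each array.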

Additional observations from a re-analysis of the deposited data

How the results depend on the processing

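NM_005345 and NM_006145 were lower under every alternative run on them with either receptor and on average, with no reversal. Over all of these, the average change was -0.85 to -0.70 for NM_005345 and -0.67 to -0.61 for NM_006145 (log2). By the used probes, the number of changed records was 2 for either receptor and for the average. With Y30F it was 1 with slide as a fixed block or the compared groups alone, 0 with slide 1 alone or without slide 2, and 3 with array weights (HOP added). With Y30E it was 1 with the slide block or without slide 2, 0 with slide 3 alone and 4 with array weights (NM_005348 and NM_001539 added). For the average it was 1 without slide 2, where NM_005345 had an adjusted p of 0.0631, and 4 with array weights (HOP and NM_006948 added). These slide settings use fewer arrays per effect and give the same estimates as each other, so they are 1 reading. Array weights raised the count over the whole array too, to 1937 features with Y30E (423 without weights) and 1451 for the average (755). The calls added by array weights were thus not confined to the chaperone records. Leaving out 1 array gave 1 to 2 changed records with Y30F, 2 to 2 with Y30E and 2 to 3 for the average. For the difference of the effects and for the mutants under dexamethasone the count was 0 in all alternatives. Under DMSO it was 0 except with median centring, where 4 records were lower in Y30E. With that setting the median of all features was -0.16 there, -0.11 for the Y30F effect and 0.17 for the difference of the effects, and the medians of the 37 records were -0.21, -0.14 and 0.17.

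The replicate number as a block left the 2 calls for each receptor, with an adjusted p of 0.0212 for NM_005345 and 0.00235 for NM_006145 with Y30F, and changed no other call among the records. Same-numbered arrays of different groups correlated at over 0.1 in 2 of 18 pairs (-0.43 to 0.27), as deviations from their group means. With 3 arrays per group and slides that cut across groups, this cannot tell whether same-numbered arrays shared a culture. Over the whole array, the count of changed features ranged from 6 (slide 1 alone) to 1367 (without Y30F-DEX replicate 1) for the Y30F effect, against 365. It ranged from 47 (slide 3 alone) to 1937 (array weights) for Y30E, against 423, and from 202 (without slide 2) to 1451 (array weights) for the average, against 755. It reached 1641 for the difference of the effects and 1216 for the mutants under dexamethasone, both with array weights, and 1578 under DMSO with median centring.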
